A study of Mus musculus with 4 samples.

Results

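Of the 37620 genes counted in WT and Cripto KO mouse embryonic stem cells (ESCs), 10 that encode regulators of mitochondrial biogenesis or of the response to low oxygen are described here. They were taken as a named list. Their symbols were matched to the Ensembl identifiers of the deposited tables. The list holds the coactivators Ppargc1a, Ppargc1b and Pprc1, the DNA-binding factors Esrra, Nrf1 and Gabpa, the mitochondrial DNA-binding protein Tfam, and the hypoxia factors Hif1a, Epas1 and Arnt. All 10 had an entry in the raw counts, and 9 passed the authors' filter on low values, which kept 15462 genes. Ppargc1a did not pass it.

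PGC-1 coactivators do not bind DNA themselves but are recruited by transcription factors such as ERRα (Esrra), NRF1 and the GABP complex to nuclear genes that encode mitochondrial proteins. One such gene is Tfam, whose product packages mitochondrial DNA and starts its transcription. Hif1a and Epas1 encode the oxygen-regulated alpha subunits HIF-1α and HIF-2α. Each pairs with the constitutive beta subunit ARNT to act on genes of glycolysis, oxygen supply and mitochondrial turnover. HIF-1α and HIF-2α are controlled mainly through protein stability, which RNA counts do not measure. Naive ESCs use both respiration and glycolysis, whereas primed epiblast stem cells (EpiSCs) are known to rely chiefly on glycolysis.

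RNA was sequenced from 4 cultures of R1 mouse ESCs, a 129/Sv line. WT and Cripto KO cells were each grown in serum with LIF (serum/LIF), which holds the naive state, or for 6 days in N2B27 medium with 20 ng/ml Activin A and bFGF (F/A), which drives the ESC to EpiSC transition. Cripto KO cells carry a knockout of Tdgf1, the gene of the Nodal co-receptor Cripto, in both media. Each condition was 1 library, so no value has a replicate check, and no test or p-value is given. The study worked with more than one Cripto KO clone, and the labels do not say which was sequenced.

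The libraries held 15230856 to 17315442 counts on genes. Tdgf1 had 18714 raw counts in serum/LIF WT, 1572 in F/A WT, 945 in serum/LIF Cripto KO and 86 in F/A Cripto KO. In the F/A Cripto KO library all but 3 of the genes with a count had an even count, against 53.1% to 53.6% odd counts in the other libraries. Its counts were therefore halved for every interval. General pluripotency markers (Pou5f1, Sox2, Nanog) summed to 2948 and 2579 cpm (counts scaled to a common library total) in serum/LIF WT and Cripto KO and to 176 and 133 cpm in F/A. The naive markers summed to 3222 and 2863 cpm in serum/LIF and to 28.5 and 45.5 cpm in F/A, where Nr0b1 and Dppa3 were at 0. Primed epiblast markers summed to 169 and 184 cpm in serum/LIF, to 1138 cpm in F/A WT and to 581 cpm in F/A Cripto KO. In F/A Cripto KO the gene T alone gave 356 cpm, and Otx2 was at 43.1 cpm, below its 62.9 cpm in serum/LIF Cripto KO. Trophoblast markers summed to 9.36 and 3.20 cpm in serum/LIF and to 215 and 246 cpm in F/A, and primitive endoderm markers to 20.2 and 16.7 cpm and to 180 and 267 cpm. Of the latter, Sox7 fell with F/A, from 2.60 to 1.31 cpm in WT and from 2.83 to 0.635 cpm in Cripto KO. The trophoblast markers went opposite ways between the F/A libraries. For WT and then Cripto KO, raw counts there were 104 and 674 of Cdx2, 196 and 1730 of Hand1, and 1963 and 422 of Eomes. Fibroblast markers summed to 89.2 and 88.1 cpm in serum/LIF, to 67.4 cpm in F/A WT and to 150 cpm in F/A Cripto KO, where Col1a1 had 1496 raw counts against 504 in F/A WT. Thy1, also on that list, fell with F/A from 26.9 to 1.18 cpm in WT and from 21.5 to 1.78 cpm in Cripto KO. The 3 neural markers with a match summed to 75.8 and 86.0 cpm in serum/LIF and to 29.2 and 34.6 cpm in F/A. With F/A, Tubb3 fell from 68.7 to 14.5 cpm in WT and from 75.8 to 17.9 cpm in Cripto KO. Pax6 went the other way, from 6.99 to 14.6 cpm and from 10.3 to 16.3 cpm. The part of these other cell types in the results was not tested, and in bulk RNA fewer cells of a type and less RNA per cell cannot be told apart.

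Changes are given as log2 ratios of the authors' quantile-normalised values, which give every library the same distribution. A gene was counted as higher or lower when it passed a 2-fold difference, which is a size and not a test. Intervals are 95% Clopper-Pearson intervals of the ratio of raw counts scaled by the library totals. They cover counting error only and are centred on the total-scaled ratio, so a quantile-normalised ratio can lie at or just past their edge. Levels of different genes are compared only per length, as RPKM, counts scaled by the merged exon length and by the library total.

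**Figure D1:**
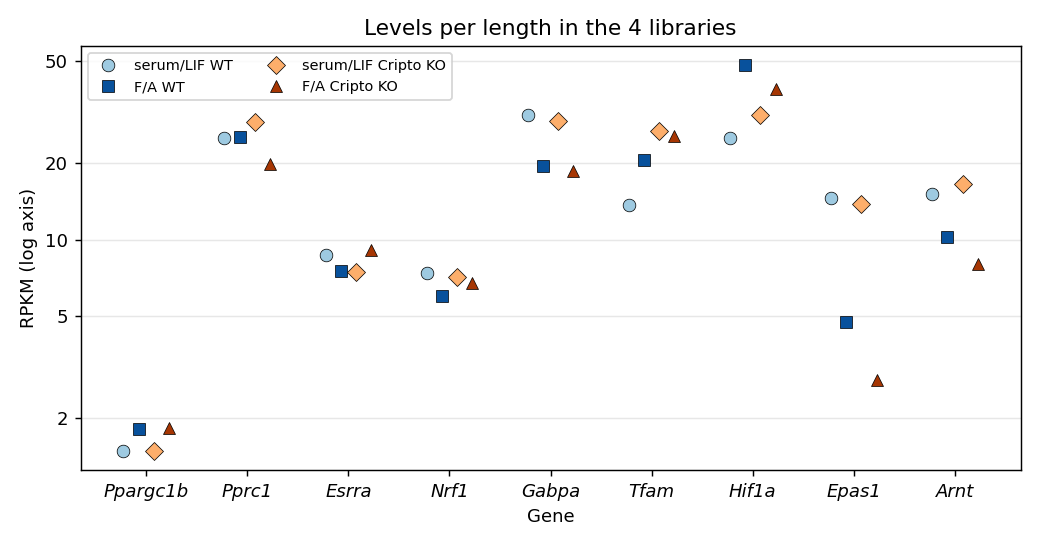
RPKM (counts scaled by merged exon length and by the library total, log axis) of the 9 detected regulators in each of the 4 libraries, 1 point per library. Hif1a was at the top in 3 libraries at 30.9 to 48.3 RPKM, Ppargc1b was at the bottom of the detected regulators in all 4 at 1.48 to 1.82 RPKM, and Epas1 separates the serum/LIF from the F/A libraries. By median transcript length Pprc1 was at the top in all 4.

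Among the coactivators, only Pprc1 was an abundant transcript. Ppargc1a, which encodes PGC-1α, the inducible coactivator of brown fat, muscle and liver, had 0 raw counts in serum/LIF WT, 1 in F/A WT, 0 in serum/LIF Cripto KO and 0 in F/A Cripto KO. All 4 values lie under the detection limit of 3 counts, or 6 in the F/A Cripto KO library, which corresponds to 0.173 to 0.381 cpm. No ratio is given for it. Its gene spans chromosome 5, 51845488 to 51958964, on the minus strand of NCBIM37.

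Ppargc1b, which encodes PGC-1β, the family member known for basal mitochondrial content and fat oxidation, was detected at a low and even level. It had 102 raw counts in serum/LIF WT, 110 in F/A WT, 96 in serum/LIF Cripto KO and 114 in F/A Cripto KO, or 5.89, 7.22, 5.90 and 7.24 cpm. The F/A libraries were slightly above the serum/LIF libraries, and the genotypes lay side by side in each medium. F/A against serum/LIF gave a log2 change of 0.27 in WT (interval of the ratio 0.928 to 1.62) and 0.24 in Cripto KO (0.868 to 1.72). Between the genotypes the log2 ratio of Cripto KO to WT was 0.06 in F/A (0.715 to 1.39) and 0.09 in serum/LIF (0.750 to 1.34). No direction was detectable at this depth. The intervals leave room for a ratio of 0.868 to 1.72 of F/A to serum/LIF in Cripto KO. For Cripto KO to WT in F/A they leave room for 0.715 to 1.39. By quantitative PCR the study reported Pgc-1b, this gene, as significantly upregulated in F/A Cripto KO cells relative to WT. The count ratio here rests on 1 library per condition, and the cause of the difference between the assays was not tested. Ppargc1b lies on chromosome 18, 61457790 to 61560085, minus strand, and shares no exon base with another gene.

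The genes whose profile over the 4 libraries was nearest to that of Ppargc1b, by Euclidean distance of centred log2 values among 11379 genes with a mean normalised value of at least 100, were Sft2d1 at 0.0208, Zfp512 at 0.0256, Bhlhb9 at 0.0358, Tmem98 at 0.0363 and Syap1 at 0.0491. These distances are far below the counting error of the Ppargc1b changes, 0.40 to 0.49 on the log2 scale. Which genes came out nearest is therefore not settled, and a shared variation with Ppargc1b was not shown.

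Pprc1 encodes PRC, the family member tied to cell growth and serum response. It had 3255 raw counts in serum/LIF WT, 2895 in F/A WT, 3526 in serum/LIF Cripto KO and 2340 in F/A Cripto KO, or 25.0, 25.3, 28.9 and 19.8 RPKM. The F/A Cripto KO library was the low one and the serum/LIF Cripto KO library the high one. In WT the log2 change with F/A was -0.05 (interval of the ratio 0.961 to 1.06), a sign that turned with total-count, TMM or DESeq2 scaling and after the transcript-length trend was removed. In Cripto KO it was -0.53 (0.641 to 0.733). Relative to WT, Cripto KO was at -0.30 in F/A (0.730 to 0.837) and 0.18 in serum/LIF (1.10 to 1.21). The F/A difference was -0.06 once the running median of genes of like exon length was taken off. With that of genes of like transcript length taken off it was -0.52, so the length trends moved it in opposite directions. Pprc1 lies on chromosome 19, 46119376 to 46147405, plus strand, and shares 177 exon bases with Ldb1 on the opposite strand. Strand use in the counting is not given in the sources used here, so reads over shared bases cannot be assigned. Per kilobase of merged exons, Ppargc1b stood at 0.0590 of Pprc1 in serum/LIF WT, 0.0716 in F/A WT, 0.0513 in serum/LIF Cripto KO and 0.0918 in F/A Cripto KO. The size of this ratio depends on the length used: by median transcript length they were at 1.77 and 340 RPKM in serum/LIF WT. The 12 annotated Pprc1 transcripts have a median length of only 553.5 bases, against 7516 bases of merged exons.

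The DNA-binding partners of the coactivators moved in different ways. Esrra encodes ERRα, an orphan nuclear receptor that PGC-1 proteins activate at genes of oxidative metabolism. Its raw counts were 382 in serum/LIF WT, 292 in F/A WT, 308 in serum/LIF Cripto KO and 362 in F/A Cripto KO, or 8.69, 7.55, 7.46 and 9.06 RPKM. WT cells had less in F/A and Cripto KO cells more. The log2 change with F/A was -0.26 in WT (0.744 to 1.01) and 0.17 in Cripto KO (1 to 1.46), and the WT sign turned to 0.16 after the transcript-length trend was removed. In F/A the difference of Cripto KO from WT was 0.26 (0.991 to 1.45), and in serum/LIF it was -0.17 (0.737 to 1). Each of these intervals reaches 1 or nearly so. Esrra lies on chromosome 19, 6985467 to 6996303, minus strand, and shares 73 exon bases with Trmt112.

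Nrf1 encodes nuclear respiratory factor 1, which binds promoters of respiratory chain and mitochondrial import genes. It had 1313, 939, 1195 and 1098 raw counts in serum/LIF WT, F/A WT, serum/LIF Cripto KO and F/A Cripto KO, or 7.37, 6.00, 7.15 and 6.78 RPKM. F/A WT was the low library and the others lay close together. The log2 change with F/A was -0.40 in WT (0.747 to 0.885) and -0.14 in Cripto KO (0.856 to 1.05). Set against WT, Cripto KO was at 0.21 in F/A (1.02 to 1.26) and -0.05 in serum/LIF (0.895 to 1.05). Nrf1 has the longest merged exons of the list, and after the exon-length trend was removed its WT change was -0.90 and its F/A genotype difference 0.53. With the transcript-length trend removed they were -0.34 and 0.18. The gene spans chromosome 6, 29997988 to 30103458, plus strand.

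Gabpa encodes the DNA-binding alpha subunit of GABP, also called nuclear respiratory factor 2. It was lower in both F/A libraries, with 3025 raw counts in serum/LIF WT, 1692 in F/A WT, 2708 in serum/LIF Cripto KO and 1660 in F/A Cripto KO, or 30.7, 19.5, 29.3 and 18.5 RPKM. The media separated and the genotypes nearly coincided. The log2 change was -0.74 in WT (0.599 to 0.675) and -0.65 in Cripto KO (0.585 to 0.685), short of 2-fold in each. Cripto KO against WT was -0.02 in F/A (0.873 to 1.03), which became 0.10 after the exon-length trend was removed, and -0.11 in serum/LIF (0.905 to 1). With the transcript-length trend removed the F/A value was -0.10. Gabpa lies on chromosome 16, 84835170 to 84864024, plus strand, and shares 397 exon bases with Atp5j, a gene of ATP synthase, on the opposite strand.

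Tfam was the regulator that differed most between the genotypes in serum/LIF. It had 1047 raw counts in serum/LIF WT, 1393 in F/A WT, 1923 in serum/LIF Cripto KO and 1782 in F/A Cripto KO, or 13.6, 20.6, 26.6 and 25.5 RPKM. Serum/LIF WT was the low library, and both Cripto KO libraries lay above both WT libraries. Cripto KO against WT gave a ratio of 1.89 in serum/LIF (log2 0.92, interval 1.81 to 2.11) and a log2 change of 0.37 in F/A (1.14 to 1.35). The F/A value was 0.17 with the transcript-length trend removed and 0.40 with the exon-length trend removed. With F/A, Tfam changed by 0.50 on the log2 scale in WT (1.40 to 1.64) and by -0.06 in Cripto KO (0.883 to 1.04), the latter with a sign that turned after either length trend was removed. Tfam lies on chromosome 10, 70688212 to 70701028, minus strand, and overlaps no other annotated gene.

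Because Gabpa and Tfam belong to one known regulatory chain, their levels were also set against each other within each library. The Tfam count per Gabpa count was 0.346 in serum/LIF WT (interval 0.322 to 0.371), 0.823 in F/A WT (0.766 to 0.884), 0.710 in serum/LIF Cripto KO (0.669 to 0.753) and 1.07 in F/A Cripto KO (0.976 to 1.18). The ratio was higher in F/A than in serum/LIF in both genotypes, and higher in Cripto KO than in WT in both media. Tfam per Nrf1 was 0.797 in serum/LIF WT, 1.48 in F/A WT, 1.61 in serum/LIF Cripto KO and 1.62 in F/A Cripto KO. The interval of serum/LIF WT (0.735 to 0.866) overlapped none of the others.

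Promoter windows from 250 bases before to 50 after the start site (RefSeq, GRCm38.p6) were found for 8 of the 10 genes, with 9 windows in all, and were searched on both strands for 4 motifs. Ppargc1b and Epas1 had no window, so the search does not cover them, and Nrf1 had more than a single window. The core of the GABP and ETS site, CCGGAAG, was in 2 of the 9 windows, those of Tfam and Gabpa, and in 8.86% of 32851 promoters. The 30 bases around each are shown because Tfam is a known GABP target, with the motif in capitals. The Gabpa match reads on the opposite strand.
Tfam, chr10:71238073-71238102, minus strand: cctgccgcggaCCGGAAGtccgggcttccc
Gabpa, chr16:84835020-84835049, plus strand: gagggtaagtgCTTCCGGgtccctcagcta
These begin 47 and 93 bases before the respective start sites, counted at the motif. The palindromic NRF1 motif was in none of the 9 windows and in 4.60% of all promoters, and the ERR motif TCAAGGTCA was in none and in 0.423%. A match is a description of the letters in the window, and no binding was measured.

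The hypoxia factors parted from each other in F/A. Hif1a, the alpha subunit found in most cells, had 2557 raw counts in serum/LIF WT, 4335 in F/A WT, 2967 in serum/LIF Cripto KO and 3630 in F/A Cripto KO, or 25.0, 48.3, 30.9 and 39.1 RPKM. Both F/A libraries lay above both serum/LIF libraries, with F/A WT the highest. The ratio of F/A to serum/LIF was 1.84 in WT (log2 0.88, interval 1.84 to 2.02), and the log2 change was 0.37 in Cripto KO (1.19 to 1.34). Cripto KO against WT was -0.26 in F/A (0.767 to 0.856) and 0.25 in serum/LIF (1.17 to 1.30). Hif1a lies on chromosome 12, 75002362 to 75048517, plus strand, and shares 330 exon bases with Gm15283, which itself had at most 773 counts in a library.

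The core of the hypoxia response element, ACGTG, was in the windows of Hif1a and Ppargc1a, 2 of 9, and in 19.6% of all promoters. The 2 stretches of the Hif1a window are shown since Hif1a moved with the medium, with the motif in capitals.
Hif1a, chr12:73907721-73907750, plus strand: acacagacaagcACGTGagcggggcagctc
Hif1a, chr12:73907785-73907814, plus strand: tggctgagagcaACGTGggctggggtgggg
The former begins 134 and the latter 70 bases before the start site, and the former also reads as a match on the opposite strand from the base before it.

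Epas1 encodes HIF-2α, known from endothelium, kidney and placenta. It fell in F/A in both genotypes, from 1329 raw counts in serum/LIF WT to 384 in F/A WT and from 1188 in serum/LIF Cripto KO to 236 in F/A Cripto KO, or from 14.5 to 4.75 and from 13.8 to 2.82 RPKM. The ratio of F/A to serum/LIF was 0.312 in WT (log2 -1.68, interval 0.292 to 0.368) and 0.195 in Cripto KO (log2 -2.35, interval 0.168 to 0.248), past 2-fold in each. Cripto KO against WT was 0.590 in F/A (log2 -0.76, interval 0.480 to 0.733), and in serum/LIF the log2 difference was -0.09 (0.880 to 1.03). Endothelial markers summed to 249, 270, 196 and 148 cpm in serum/LIF WT, F/A WT, serum/LIF Cripto KO and F/A Cripto KO, with Emcn at 0 in all 4. Different genes made up these sums in each medium. Pecam1, which the study used as a membrane marker of the epiblast, gave 228 of the 249 cpm in serum/LIF WT. Pecam1 went from 3952 raw counts in serum/LIF to 9 in F/A in WT and from 2859 to 54 in Cripto KO, whereas Flt1 went from 57 to 3646 and from 55 to 1446, and Kdr from 5 to 417 and from 5 to 738. Their part in the Epas1 result was not tested. Epas1 lies on chromosome 17, 87153247 to 87232750, plus strand, and overlaps no other annotated gene.

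Arnt, the shared beta subunit, was also lower in F/A. It had 2088 raw counts in serum/LIF WT, 1243 in F/A WT, 2145 in serum/LIF Cripto KO and 1014 in F/A Cripto KO, or 15.1, 10.2, 16.5 and 8.05 RPKM. The log2 change was -0.65 in WT (0.630 to 0.726), or -1.05 with the exon-length trend removed and -0.74 with the transcript-length trend removed. In Cripto KO the ratio was 0.477 (log2 -1.07, interval 0.442 to 0.538), which passed 2-fold with each scaling tried but by little, at -1.01 with TMM. Cripto KO against WT was -0.31 in F/A (0.710 to 0.876) and 0.10 in serum/LIF (1.03 to 1.16). The F/A value was -0.04 with the exon-length trend removed and -0.27 with the transcript-length trend removed. Arnt spans chromosome 3, 95238310 to 95301162, plus strand.

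**Figure D2:**
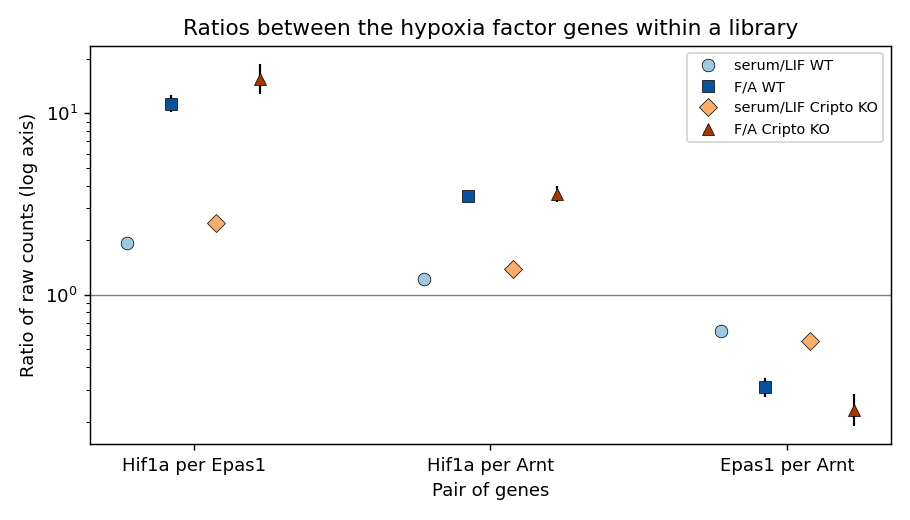
Count of one hypoxia factor per count of another within each of the 4 libraries (log axis), with 95% intervals for counting error. Hif1a per Epas1 rose from 1.92 to 11.3 in WT and from 2.50 to 15.4 in Cripto KO, and the serum/LIF and F/A intervals did not overlap.

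Within a library these ratios do not depend on the scaling between libraries. The Hif1a count per Epas1 count was 1.92 in serum/LIF WT (1.80 to 2.06), 11.3 in F/A WT (10.2 to 12.6), 2.50 in serum/LIF Cripto KO (2.33 to 2.67) and 15.4 in F/A Cripto KO (12.8 to 18.7). Per kilobase of merged exons, Hif1a stood 1.73-fold above Epas1 in serum/LIF WT and 13.9-fold above it in F/A Cripto KO, values that depend on the length used. Hif1a per Arnt was 1.22 and 3.49 in serum/LIF and F/A WT and 1.38 and 3.58 in Cripto KO, and the F/A values lay within each other's intervals (3.27 to 3.72 and 3.24 to 3.96). Epas1 per Arnt was 0.636 and 0.309 in WT and 0.554 and 0.233 in Cripto KO.

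**Figure D3:**
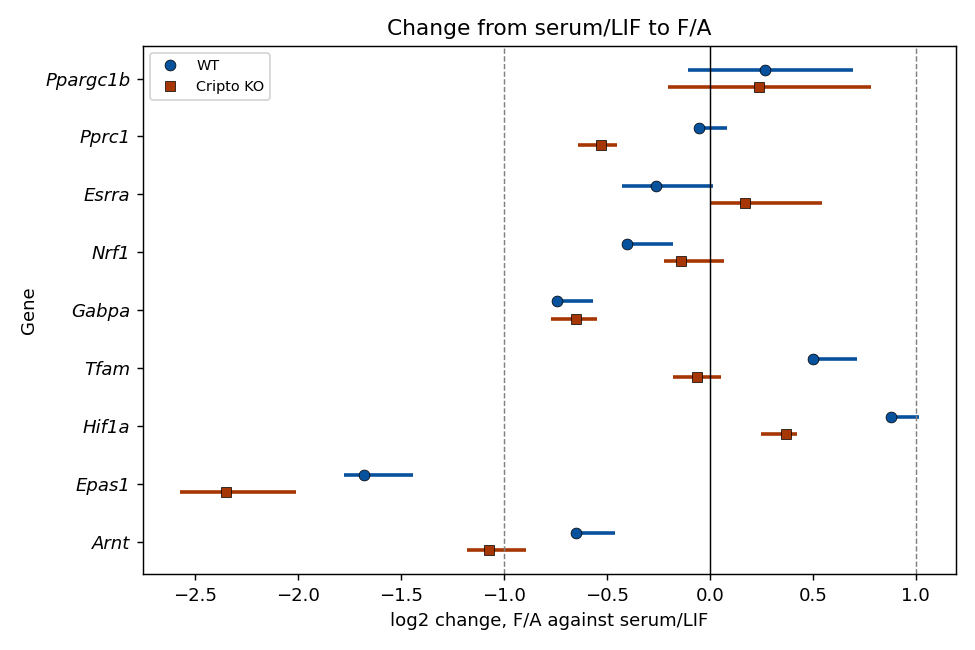
Log2 ratio of F/A to serum/LIF for the 9 regulators, in WT and in Cripto KO, from quantile-normalised values, with 95% intervals of counting error drawn around the total-scaled ratio, so that points can sit at the edge of their bars. Epas1 lies past the 2-fold line in both genotypes at -1.68 and -2.35, and Arnt in Cripto KO at -1.07.

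In the WT transition, 0 of the 9 regulators were at least 2-fold higher in F/A and 1 was lower, Epas1, where 22.1% of all genes were at least 2-fold higher and 20.9% lower. Their median log2 change was -0.26, against -0.07 over all genes. In the Cripto KO transition 0 were higher and 2 lower, Epas1 and Arnt, against 19.9% and 19.4% of all genes, with a median of -0.14 against -0.07. These shares are near or below those of all genes. Counting error alone was exceeded by most genes. In WT the interval lay above 1 for 40.7% of all genes and below 1 for 42.5%, and among the regulators above 1 for 2 (Tfam, Hif1a) and below 1 for 4 (Nrf1, Gabpa, Arnt, Epas1). In Cripto KO it lay above 1 for 37.3% and below 1 for 38.4% of all genes. Among the regulators it lay above 1 for Esrra, just barely, and Hif1a, and below 1 for Pprc1 and Gabpa beside Epas1 and Arnt.

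**Figure D4:**
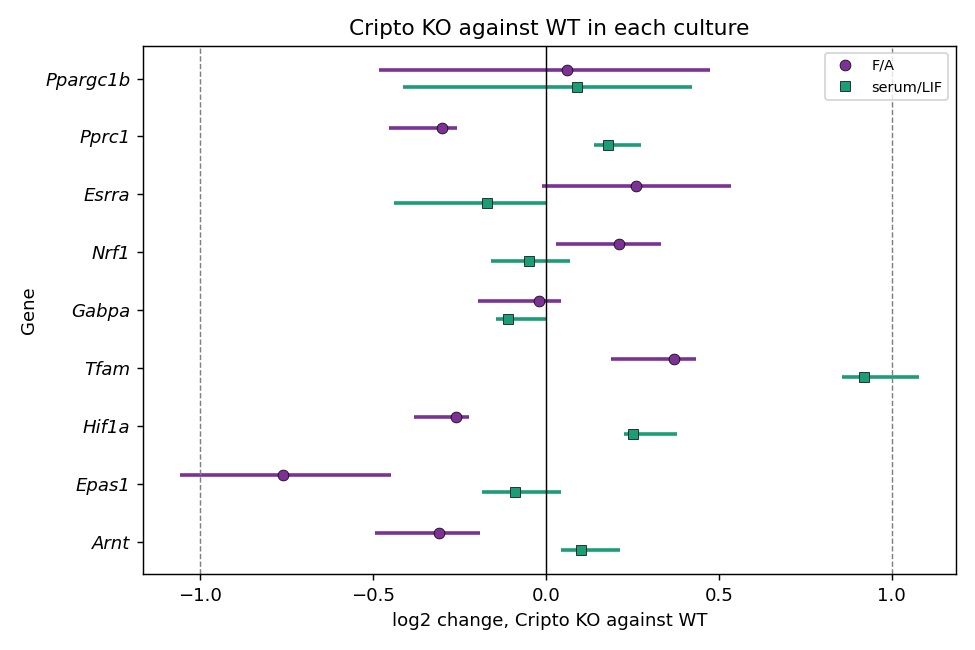
Log2 ratio of Cripto KO to WT of the 9 regulators in serum/LIF and in F/A, from quantile-normalised values, with 95% intervals of counting error drawn around the total-scaled ratio. Every value lies within the 2-fold lines, from -0.17 to 0.92 in serum/LIF and from -0.76 to 0.37 in F/A.

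Between the genotypes, 0 of the 9 regulators passed 2-fold in F/A, where 4.59% of all genes were higher in Cripto KO and 5.69% lower. In serum/LIF 0 passed, where 2.86% were higher and 2.75% lower. The medians were -0.02 in F/A and 0.09 in serum/LIF, against 0.00 over all genes in each. In F/A the interval lay above 1 for Nrf1 and Tfam and below 1 for Pprc1, Hif1a, Epas1 and Arnt, where it lay above 1 for 24.5% and below 1 for 26.7% of all genes. In serum/LIF it lay above 1 for Pprc1, Tfam, Hif1a and Arnt and below 1 for none of the regulators, where the shares of all genes were 18.7% and 21.8%. The genotype comparisons use the same libraries as the transitions and are not independent of them.

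The study asked whether the transition depends on Cripto, and the difference of the transitions puts that in 1 value per gene. The log2 change in Cripto KO minus that in WT was -0.68 for Epas1 (interval -1 to -0.36), -0.55 for Tfam (-0.82 to -0.50), -0.51 for Hif1a (-0.72 to -0.50), -0.48 for Pprc1 (-0.68 to -0.44) and -0.41 for Arnt (-0.64 to -0.30). It was 0.42 for Esrra (0.14 to 0.83) and 0.26 for Nrf1 (0.03 to 0.41). For Gabpa it was 0.08 (-0.15 to 0.14) and for Ppargc1b -0.03 (-0.61 to 0.61). The interval, with counting error alone in it, excluded 0 for 7 of 9, and it did so for 50.7% of the 14884 genes with a count in every library (25.2% above 0 and 25.5% below). With the exon-length trend removed, Pprc1 moved to -0.25 and Nrf1 to 0.67, Arnt at -0.16 and Esrra at 0.28 no longer exceeded their counting error, and Gabpa at 0.25 did. With the transcript-length trend removed, Pprc1 was at -0.84, Tfam at -0.78, Arnt at -0.34 and Nrf1 at 0.23. Esrra at 0.25 was within its counting error there as well. Without replicates the spread between cultures is unknown, and a clone or culture effect cannot be told apart from Cripto.

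The order of the levels per kilobase of merged exons differed between the libraries. In serum/LIF WT it ran Gabpa, Pprc1, Hif1a, Arnt, Epas1, Tfam, Esrra, Nrf1, Ppargc1b and Ppargc1a. Pprc1 and Hif1a, Arnt and Epas1, and Epas1 and Tfam did not differ beyond counting error. In F/A WT it ran Hif1a, Pprc1, Tfam, Gabpa, Arnt, Esrra, Nrf1, Epas1 and Ppargc1b, with Tfam and Gabpa not separated. In serum/LIF Cripto KO it ran Hif1a, Gabpa, Pprc1, Tfam, Arnt, Epas1, Esrra, Nrf1 and Ppargc1b, where Gabpa and Pprc1, and Esrra and Nrf1, were not separated. In F/A Cripto KO it ran Hif1a, Tfam, Pprc1, Gabpa, Esrra, Arnt, Nrf1, Epas1 and Ppargc1b, where Pprc1 and Gabpa, and Esrra and Arnt, were not separated. Epas1 stood last but one of the detected genes in both F/A libraries by this length, but by median transcript length it stood there in all 4 libraries, so its change of place depends on the length used. So does the top place, which Pprc1 held in all 4 libraries by median transcript length. For Pprc1 that length is 553.5 bases over 12 annotated transcripts, against 7516 bases of merged exons. Epas1 has 1 annotated transcript, so both its lengths are 5309 bases. Its place within a library shifted between the lengths only through those of the other genes.

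Genes around the regulators were described through 5 lists of 123 genes, of which 115 were in the filtered table. Values for genes beyond the 3 largest changes of a list were picked after they were seen.

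**Figure D5:**
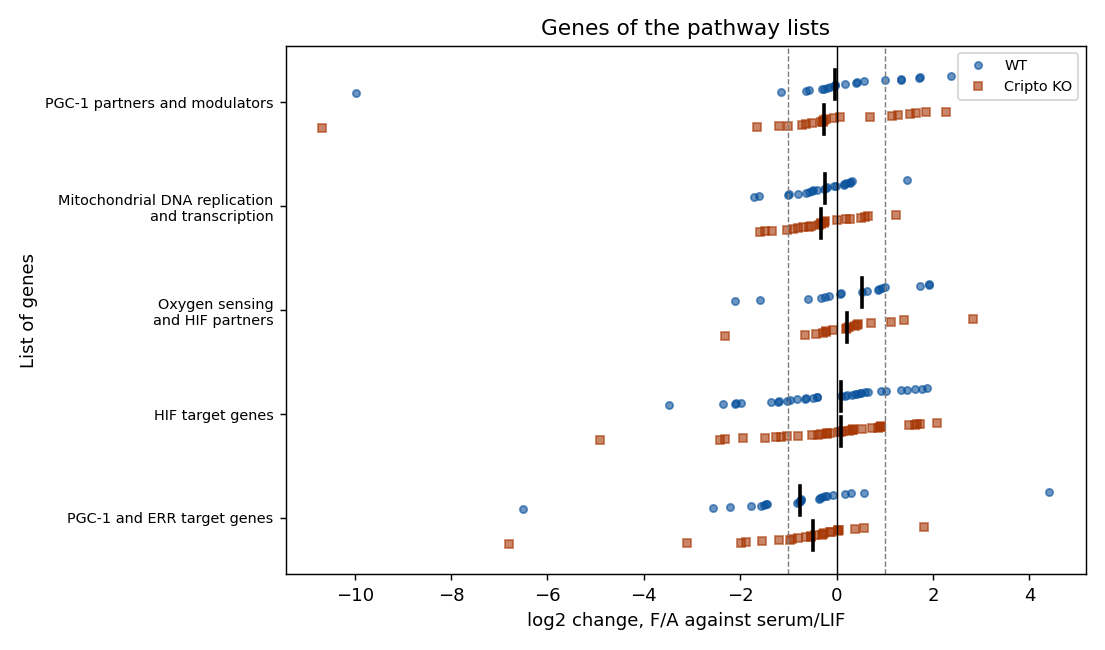
Log2 ratio of F/A to serum/LIF for each measured gene of the 5 lists, in WT (circles) and in Cripto KO (squares), 1 point per gene, with black bars at the list medians and dashed lines at 2-fold. The medians of the PGC-1 and ERR target genes lie lowest, at -0.75 and -0.49, and the far points on the left are Esrrb, Cpt1a and Lox.

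Among 21 measured PGC-1 partners and modulators, 6 were higher and 2 lower in F/A in WT and 6 and 3 in Cripto KO. Over all genes 22.1% were higher and 20.9% lower in WT, and 19.9% and 19.4% in Cripto KO. The medians were -0.03, a sign that turned with each other scaling, and -0.27. All 6 higher genes were shared, and both genes that were lower in WT were also lower in Cripto KO. The overlap over all genes was not counted here, so whether the sharing is particular to the list cannot be told. By its own threshold the study reported that most deregulated genes were common to both transitions. Esrrb, an ERR family receptor and itself a naive pluripotency factor, went from 15699 to 13 raw counts in WT and from 16258 to 8 in Cripto KO. Nrip1, a corepressor of nuclear receptors that opposes PGC-1, rose by 2.38 and 2.27 on the log2 scale, and the thyroid hormone receptor Thra by 1.72 and 1.85. Between genotypes 0 of 21 passed in either medium, with medians of -0.23 in F/A and 0.01 in serum/LIF. Over all genes 4.59% were higher in Cripto KO and 5.69% lower in F/A, and 2.86% and 2.75% in serum/LIF.

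Among 22 genes of mitochondrial DNA replication and transcription (3 more had no match), 1 was higher and 2 lower in WT (all genes 22.1% and 20.9%) and 1 and 4 in Cripto KO (all genes 19.9% and 19.4%), with medians of -0.24 and -0.32. Polrmt, the mitochondrial RNA polymerase, went from 1104 to 315 raw counts in WT (log2 -1.71) and from 995 to 402 in Cripto KO (log2 -1.35). Tfb1m, a methyltransferase of the mitochondrial ribosomal RNA, went from 447 to 138 (log2 -1.61) and from 383 to 140 (log2 -1.49). Mterf3, a repressor of mitochondrial transcription, was higher, at 1.46 and 1.23. Tfam, the partner of Polrmt at mitochondrial promoters, was at 0.50 in WT, where Polrmt was at -1.71, and at -0.06 in Cripto KO, where Polrmt was at -1.35 and the Tfam interval held no change. Between genotypes 0 of 22 passed in either medium, with medians of 0.02 and -0.01, whose signs turned with other scalings. Over all genes 4.59% were higher in Cripto KO and 5.69% lower in F/A, and 2.86% and 2.75% in serum/LIF.

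In the 17 genes of oxygen sensing and HIF partners, 4 were higher and 2 lower in WT (all genes 22.1% and 20.9%) and 3 and 1 in Cripto KO (all genes 19.9% and 19.4%). The medians were 0.53 in WT and 0.21 in Cripto KO, but 0.30 and 0.38 with the transcript-length trend removed, so their order depends on it. Arnt2, the paralogue of Arnt, rose from 206 to 702 raw counts in WT (log2 1.91) and from 202 to 570 in Cripto KO (log2 1.40), whereas Arnt itself was lower in F/A in each. Hif3a, which encodes an alpha subunit that can restrain the other two, went from 91 to 304 in WT (log2 1.92) and from 128 to 224 in Cripto KO (log2 0.72). Egln3, a prolyl hydroxylase that marks HIF-α for decay, was at -2.11 and -2.31 on the log2 scale. Cited2, which competes with HIF-α for the coactivators p300 and CBP, went from 1344 to 4163 raw counts in WT (log2 1.74) and from 689 to 4874 in Cripto KO (log2 2.82). Between genotypes, 1 of 17 passed in F/A: Crebbp, the gene of CBP, had 906 raw counts in Cripto KO and 1775 in WT (log2 -1.01, interval 0.444 to 0.548). That count is near the share of all genes, of which 5.69% were lower and 4.59% higher there. In serum/LIF 0 passed (all genes 2.86% higher and 2.75% lower). The list medians were 0.09 in F/A, or -0.02 with the exon-length trend removed, and 0.16 in serum/LIF.

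The 33 measured HIF target genes split in both directions, with 6 higher and 9 lower in WT and 5 higher and 8 lower in Cripto KO, beside 22.1% and 20.9% of all genes in WT and 19.9% and 19.4% in Cripto KO. Their medians were 0.10 and 0.09. Of these, 4 higher and 6 lower genes were shared by the genotypes, an overlap that was not counted over all genes. The shared higher genes included the glucose transporters Slc2a1 (log2 1.77 in WT and 1.73 in Cripto KO) and Slc2a3 (1.34 and 1.51) and the glycolytic activator Pfkfb3 (1.88 and 2.08). Among the shared lower ones were Lox, the collagen cross-linker, at -3.47 and -4.90, the mitophagy receptor Bnip3 at -2.09 and -1.94, and Pdk1, a kinase that inhibits pyruvate dehydrogenase, at -1.99 and -2.43. Genes of glycolytic enzymes did not rise with the transporters in WT: Aldoa was at -1.36, Hk2 at -0.82, Ldha at -0.65, Pgk1 at -0.64 and Eno1 at -0.41. In Cripto KO Hk2 was at -1.15, Aldoa at -0.80 and Pgk1 at -0.19, but Eno1 at 0.09 and Ldha at 0.34. Vegfa was 1.62 in WT and 0.92 in Cripto KO. Between genotypes 1 of 33 was higher and 1 lower in F/A, both on few counts: Adm with 28 raw counts in Cripto KO against 8 in WT, and Lox with 8 against 22. Over all genes 4.59% were higher there and 5.69% lower. In serum/LIF 0 passed (all genes 2.86% higher and 2.75% lower). The medians were 0.07 in F/A, or -0.05 with the transcript-length trend removed, and -0.13 in serum/LIF.

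PGC-1 and ERR target genes were lower in F/A more often than higher. Of 24 measured, 1 was higher and 8 lower in WT (median -0.75) and 1 and 6 in Cripto KO (median -0.49). With the transcript-length trend removed the medians were -0.49 in WT and -0.38 in Cripto KO. Over all genes 22.1% were higher and 20.9% lower in WT, and 19.9% and 19.4% in Cripto KO. All 6 that were lower in Cripto KO were also lower in WT, again without the overlap over all genes beside it. Cpt1a, which admits long-chain fatty acids to mitochondria, went from 1908 to 19 raw counts in WT and from 1609 to 12 in Cripto KO. Sod2, the superoxide dismutase of the mitochondrial matrix, went from 3118 to 482 in WT (log2 -2.56) and from 2538 to 678 in Cripto KO (log2 -1.88). Pdk4 was at -2.22 and -3.11, and the inner membrane carrier Ucp2 at -1.57 and -1.99. Between genotypes 0 of 24 passed in F/A (all genes 4.59% higher and 5.69% lower). In serum/LIF 1 did (all genes 2.86% and 2.75%), Perm1, on 19 raw counts in Cripto KO and 6 in WT. The medians were 0.13 in F/A and -0.05 in serum/LIF.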

How the data were processed

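RNA-seq reads of 4 cultures were aligned by the authors to mouse mm9 (NCBIM37) with TopHat2 2.0.13 and counted per gene with HTSeq 0.6.1p1. The authors deposited these raw counts and a signal derived from them, the full quantile-normalised values (preprocessCore, through RNASeqGUI) of the genes kept by the NOISeq proportion filter. The strand setting of the counting is not given in the sources used here. Recomputing the quantile values from the counts gave a largest difference of 0. Each column was matched to its culture by name, and 0 columns were left without a sample. Ensembl 65 annotation of the same build named 37205 (98.9%) of the genes and gave exon lengths.

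Log2 changes were taken from the normalised values, with 0 replaced by 0.5, over all 15462 genes. With 1 library per condition the probability of the study's NOISeq-sim method was left out and only its 2-fold part was kept. Tables and 95% intervals were made with pandas 2.3.3, scipy 1.17.1 and numpy 2.4.6 (Python 3.11.15), and figures with matplotlib 3.10.9. For intervals the F/A Cripto KO counts were divided by 2. Intervals of the difference of the transitions used the Poisson error of the 4 raw counts. edgeR 4.0.16 (TMM) and DESeq2 1.42.0 in R 4.3.3 gave scaling factors only. Length trends were running medians over 501 genes ordered by median transcript length or merged exon length. The scripts were tested on simulated data.

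The members and lists were chosen with earlier results of these data known. Named were all 10 members, Tdgf1, of each list at most the 3 largest changes per comparison past 2-fold, where the higher value was at least 100 raw counts, and the 5 genes nearest to Ppargc1b. Other list genes in the text (such as Slc2a1, Slc2a3, Pfkfb3, Vegfa, Adm and Perm1) and single markers were chosen after their values were seen. Alternatives were total-count, TMM and DESeq2 scaling, 5 added to every value, no filter, a mean of at least 50 raw counts, halved F/A Cripto KO counts, both length trends, and folds of 1.5 and 3. The exon-length trend was added after seeing the data.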

Additional observations from a re-analysis of the deposited data

Results flagged for a closer look

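Some regulators went opposite ways under the same contrast in the 2 genotypes or the 2 media. With 1 library per condition the difference was not tested in any of them. Esrra changed by -0.26 on the log2 scale from serum/LIF to F/A in WT and by 0.17 in Cripto KO, and Tfam by 0.50 and -0.06. For Cripto KO against WT, Pprc1 was -0.30 in F/A and 0.18 in serum/LIF, Esrra 0.26 and -0.17, Nrf1 0.21 and -0.05, Hif1a -0.26 and 0.25, and Arnt -0.31 and 0.10. The interval of counting error excluded no change on both sides for Pprc1, Hif1a and Arnt.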

How the results depend on the processing

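No paired analysis was possible because each condition was 1 library and the labels give no replicate numbers, and no library could be left out of a comparison. The count of regulators past 2-fold was unchanged by total-count, TMM or DESeq2 scaling, 5 added to every value, no filter, a mean of at least 50 raw counts and halved F/A Cripto KO counts. In the WT transition it went from 1 to 2 with the transcript-length trend (Hif1a) or the exon-length trend (Arnt) removed and to 4 at a fold of 1.5. In Cripto KO it went from 2 to 3 at a fold of 1.5 and to 1 at a fold of 3. Between genotypes it went from 0 to 1 at a fold of 1.5 in F/A (Epas1) and in serum/LIF (Tfam). Differences of the transitions that excluded 0 were 7 under the scalings and 6 after either length trend (Esrra lost with each, and with the exon-length trend Arnt lost and Gabpa gained). With median transcript length in place of merged exon length, 4 of 10 places in the order of levels were kept in serum/LIF WT, 5 in F/A WT, 4 in serum/LIF Cripto KO and 5 in F/A Cripto KO. Genes of the 5 lists past 2-fold between genotypes went from 3 to 5 in F/A with total-count scaling and from 1 to 0 in serum/LIF with a mean of at least 50 raw counts, which removed Perm1. The share of 2-fold calls over all genes that were higher in Cripto KO was 44.7% in F/A and 51.0% in serum/LIF, against 32.4% and 36.9% with total-count scaling, 34.2% and 38.0% with TMM and 33.9% and 38.1% with DESeq2. Changes of single regulators whose sign turned were those of Pprc1 in WT (0.02 with total counts or DESeq2, 0.03 with TMM, 0.48 with the transcript-length trend removed), Esrra in WT (0.16, likewise), Tfam in Cripto KO (0.03 and 0.04 with the transcript and exon-length trends) and Gabpa between genotypes in F/A (0.10 with the exon-length trend). Of the differences of the transitions, that of Gabpa turned to -0.01 with total counts and that of Ppargc1b to 0.01 with TMM and 0.15 with the transcript-length trend. List medians that turned were those of PGC-1 partners in WT (0.07 with total counts or DESeq2, 0.08 with TMM, 0.17 with the transcript-length trend), and between genotypes those of mitochondrial DNA genes in both media, oxygen sensing genes in F/A and HIF target genes in F/A. The cause of these changes was not tested. Depth limits Ppargc1a, which was under the detection limit in every library, and Ppargc1b, whose intervals span more than the changes seen.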
